A study of Mus musculus with 6 samples.

Results

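The stretch of mouse chromosome 3 that holds Sox2 and its distal control region was examined in a Hi-C list of chromatin contacts from P19, a line of mouse embryonal carcinoma cells from which retinoic acid can make neurons. Hi-C ligates DNA ends held near each other by crosslinks and sequences the joints, so each value is a number of read pairs that link 2 stretches of the genome. Members were all listed pairs of 5 kb bins with at least 1 bin centre from 34,400,000 to 34,800,000 (mm9). The rule took 1134 of 3,654,010 nuclear pairs, and 276 of them had both bins inside these 400 kb. Cells were untreated (T0) or had received ATRA, all-trans retinoic acid, at 1e-06 M, during 6 h in the T6 group and 48 h in the T48 group, with 2 libraries per group. All were P19 cells in monolayer on gelatine, and untreated cells kept for 6 h or 48 h were not analysed here, so ATRA and time in culture cannot be told apart. Whether the 2 replicates of a group were grown as separate cultures is not stated, so any p-value measures only the spread between these libraries, which may be technical. Gene expression was not measured in these files, so the label of the cells could not be checked against marker genes.

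SOX2 is a transcription factor of the HMG-box family that pluripotent cells and neural progenitors both use. In mouse embryonic stem cells its transcription depends on a cluster of enhancers that lies downstream of the gene, the distal control region, which pluripotency factors bind. Such an enhancer is thought to act on its promoter through contact in the nucleus. The gene lies within the long non-coding RNA gene Sox2ot and has few protein-coding neighbours. In the RefSeq table for GRCm38.p6 the nearest of these were Dnajc19, a gene for a mitochondrial import protein, on the lower-coordinate side, and Atp11b, a gene for a phospholipid-transporting ATPase, on the other.

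The promoter is the end of the contact that names the gene, and its sequence shows how GC-rich it is. RefSeq gives the 250 bases before the start of Sox2 at chr3:34649745-34649994 on the plus strand of GRCm38.p6, a build whose coordinates are not those of the contact list. Capitals mark, in order from the 5′ end, a half-site of nuclear receptors, AGGTCA, which lies here on the other strand and so reads TGACCT; part of the motif of the insulator protein CTCF, namely CCCTC; and a box with the letters CCAAT, again on the other strand, which reads ATTGG.
Sox2 promoter: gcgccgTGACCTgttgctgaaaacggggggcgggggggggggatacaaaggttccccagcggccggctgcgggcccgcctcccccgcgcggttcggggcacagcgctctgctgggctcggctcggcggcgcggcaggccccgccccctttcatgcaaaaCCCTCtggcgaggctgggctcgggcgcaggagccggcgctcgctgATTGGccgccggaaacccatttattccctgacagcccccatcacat
Its GC content was 72%, against a median of 52.4% over all promoter sequences of the RefSeq table. Both strands were searched. The marked motifs begin 244, 91 and 46 bases before the start, none overlaps another, and 14%, 60.5% and 33.8% of 32,851 promoters of the same length hold them. The octamer ATGCAAAT and CATTGT, a form of the core of SOX binding sites, had no match in this window on either strand. Of all promoters, 1.6% and 10.7% hold them. Other forms of the SOX core were not searched, so their absence is not shown. These matches describe letters and not binding, and the sequence of the control region was not used here.

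A pair of bins is in the list for a time point or not, for both replicates together, and an unlisted pair carries a 0 that is no measured absence of contact. The lowest listed count in the whole list was 3. Numbers of listed pairs therefore have no replicate error, and sums over listed pairs move with what was listed. The counts listed in each library came to between 23,003,295 and 50,154,643, of which the region held between 4398 and 9107. Sums are given as CPM, the counts per 1,000,000 listed counts of the library. Read pairs are not separate molecules, and their raw counts hold no correction for how well a bin was covered. Whether the choice of listed pairs used such a correction is not given in the sources used here.

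Sox2, placed by the rule near 34,550,000, touches 2 bins. The bin at 34,545,001 to 34,550,000, called the gene bin here, had 55 listed pairs over the 3 time points, whereas the bin at 34,550,001 to 34,555,000 had none at any of them. The control region, placed from 34,653,000 to 34,662,000, touches 3 bins, and the middle one, at 34,655,001 to 34,660,000, likewise had no listed pair. Of the 80 bins of the region 67 had a listed pair (83.8%), against 73.1% of the 515,589 bins of the genome. Why 13 bins of the region had none was not tested.

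Between gene and control region 6 pairs of bins could have been listed, and 4 of them involved a bin without any pair. The other 2 pairs were listed at T0 and at T6 and were not listed at T48. The pair 105 kb apart, of the gene bin with 34,650,001 to 34,655,000, had counts of 13 and 12 at T0 and of 8 and 10 at T6 in replicates 1 and 2, and was unlisted at T48. At that distance the median listed count was 11 and 6 at T0, 10 and 6 at T6, then 9 and 6 at T48, and the lowest was 8 and 5 at T0 and 7 and 5 at both later times. The pair was above the median at T0, and at T6 it was below the median in replicate 1 and above it in replicate 2. Among all pairs listed at that distance, 11.8% had counts at least as high in both libraries at T6 and 5.99% at T0. The pair 115 kb apart, with 34,660,001 to 34,665,000, had 14 and 6 at T0 and 13 and 8 at T6, and was unlisted at T48. At that distance 12.7% of listed pairs were at least as high in both libraries at T6 and 17.2% at T0. Both pairs thus lay within the range of other listed pairs at their distance. At T48 the lowest listed counts at either distance were 7 and 5 in replicates 1 and 2, so contacts below that level could be present and unlisted.

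Dropping off the list was common at these distances. Of 36,163 pairs of the genome 105 or 115 kb apart that were listed at T0, 29.7% were listed again at T6 and 30.4% at T48. Of the 10,738 that were listed at both T0 and T6, as the gene to control region pairs were, 55.8% were listed at T48, and the other pairs were not. With T0 counts at least as high as those of the Sox2 pair in both libraries, 74.3% of 1077 pairs at 105 kb and 57.1% of 3119 pairs at 115 kb were listed at T48. The share of pairs that were listed at T0 and T6 and then not at T48 was 13.1% of those listed at T0. How often 2 pairs of 1 bin left the list together was not counted.

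Summed over both pairs, gene to control region contact was 0.538 and 0.607 CPM at T0, 0.518 and 0.782 CPM at T6, and no listed count at T48. The T6 libraries lay on both sides of the T0 libraries. The mean was 0.650 ± 0.187 CPM at T6 and 0.573 ± 0.049 CPM at T0 (SD, n = 2 each), a log2 ratio of 0.15, taken for this and the other CPM sums as the mean of the log2 ratios within replicates, here −0.06 and 0.37 (exact permutation test, two-sided, p = 1). Without T6 replicate 2 the log2 ratio was −0.14. The T6 to T0 difference was smaller than the spread between the T6 replicates. For T48 against either earlier time the exact test gave p = 0.333, the smallest that 2 libraries against 2 allow, and it rests on listing alone.

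Taken 1 bin wider on each side, 7 pairs were listed at some time: 5 at T0, 6 at T6 and 0 at T48. Their summed counts were 68 and 50 at T6 and 68 and 44 at T0, which is 1.68 and 2.17 CPM at T6 and 1.36 and 1.48 CPM at T0. Both T6 libraries were above both T0 libraries, with means of 1.93 ± 0.352 CPM at T6 and 1.42 ± 0.091 CPM at T0 (SD, n = 2 each) and a log2 ratio of 0.43 (exact permutation test, p = 0.333). The wider set, like the narrow one, had no listed pair at T48. How often other sets of bins differed as much between T6 and T0 was not counted.

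**Figure D1:**
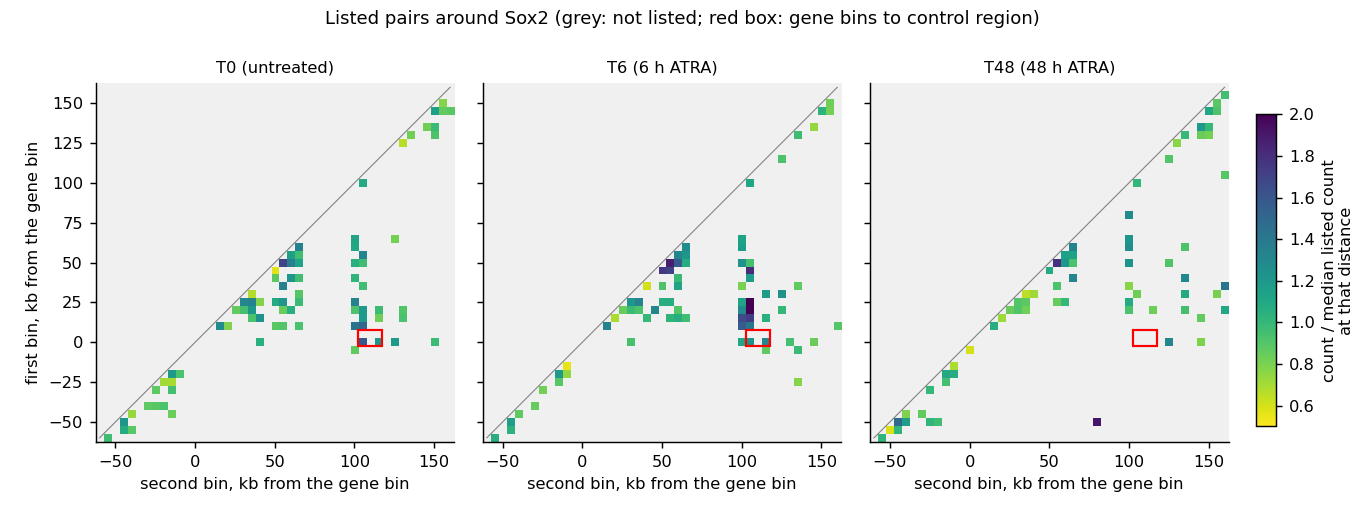
Listed pairs around Sox2 at T0, T6 and T48, with the first bin on the y axis and the second on the x axis, both in kb from the gene bin; colour is the count over the median listed count at that distance, grey is not listed, and the red box holds the 6 possible gene to control region pairs. The box holds 2 listed pairs at T0, 2 at T6 and 0 at T48.

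Blocks of 25 kb around gene and control region had listed pairs at all 3 times, though no pair of bins was listed at all 3. At T48 none of them joined a gene bin with a control region bin: 1 joined the gene bin with a bin 125 kb away, beyond the control region, and 1 joined a bin 20 kb above the gene bin with a control bin. Blocks 34,525,001 to 34,550,000 and 34,650,001 to 34,675,000 shared 34 and 28 counts at T0, 30 and 23 at T6, followed by 7 and 11 at T48. The next block, which starts at 34,550,001, shared 67 and 38 counts with the same control block at T0, 98 and 60 at T6, then 8 and 6 at T48. In both block pairs the T48 libraries were below all 4 earlier libraries. The log2 ratio of mean CPM at T48 over T0, with unlisted pairs taken as 0, was −1.61 for the first and −2.76 for the second. Block pairs with the same separation and T0 values at least as high had medians of −0.51 (4852 block pairs) and −0.51 (3717 block pairs). A ratio as low as that of Sox2 was found in 20.2% of the first kind and in 6.86% of the second. These shares describe the list, since a pair that is not listed pulls every such ratio down; no p-value is given for them because an edgeR fit over blocks with unlisted pairs called 48.7%, 55.4% and 56.9% of the genome's block pairs for T6 over T0, T48 over T0 and T48 over T6.

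From the side of the control region low T48 values extended to other partners. The control bin at 34,650,001 to 34,655,000 had 7 pairs over 20 kb towards lower coordinates, the side of the gene, at T0, 8 at T6 and 2 at T48. Their summed contact was 2.13 and 2.29 CPM at T0, 3.21 and 3.87 CPM at T6, and 0.345 and 0.305 CPM at T48. The 3 groups did not overlap, with T6 highest and T48 lowest, and each exact permutation p was 0.333, the smallest possible. The log2 ratio was 0.67 for T6 over T0, −2.77 for T48 over T0 (−2.63 and −2.91 within replicates 1 and 2) and −3.44 for T48 over T6. Over the genome, pairs over 20 to under 400 kb apart had −0.04, −0.19 and −0.15, a class without the T48 pair at 480 kb. These sums follow what was listed, and how often other bins had sums that differed as much was not counted for either control bin. Towards higher coordinates this bin had 29 and 28 counts at T0, 31 and 18 at T6, then 50 and 33 at T48, so that side did not share the low T48 values. Its only pair within 20 kb was listed at all times, with 83 and 50, 88 and 40, and 77 and 43 counts at T0, T6 and T48, a log2 ratio of −0.06 at T48 over T0.

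The control bin at 34,660,001 to 34,665,000 had the same order on the gene side, from fewer pairs. There it had 35 and 17 counts at T0, 46 and 26 at T6, followed by 8 and 6 at T48, with log2 ratios of 0.84 for T6 over T0 and −1.71 for T48 over T0. Over 20 kb away on the other side it had 68 and 42 counts at T0, 33 and 20 at T6, then 35 and 30 at T48. The log2 ratios were −0.72 and −0.62. In CPM both later times were thus below T0 for these pairs. That order does not hold for the side as a whole. Its only pair within 20 kb, also on that side, was unlisted at T0. This pair had 49 and 20 counts at T6 and 40 and 28 at T48. By number of listed pairs neither control bin stood out: 15, 15 and 11 pairs at T0, T6 and T48 for the first and 13, 11 and 8 for the second. Of the 376,858 bins of the genome with at least 1 listed pair, 21.3%, 13.3% and 38.3% had as many pairs as the first or more. For the second these shares were 30.5%, 30.9% and 61.4%.

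The gene bin itself had 24 pairs at T0, 23 at T6 and 34 at T48. Over the bins of the genome with at least 1 listed pair the median was 9, 8 and 9. Only 3.42%, 2.05% and 0.338% of those bins had as many as the gene bin or more at the 3 times. Its partners lay far away, at a median distance of 437.5 kb at T0, 430 kb at T6 and 480 kb at T48, whereas the median over all listed pairs was 75, 75 and 85 kb. At 400 kb or more it had 14, 12 and 27 partners. There the median of the bins with a listed pair was 1, 0 and 1, and at T48 only 0.0876% of them had as many. Ratios of pairs at T48 over T0 were taken in 261,527 bins with at least 20 pairs over the 3 times and at least 1 at T0. Of these, 12.1% had a ratio as high as the 1.42 of the gene bin, and the median was 0.909. For pairs from 400 kb the ratio of the gene bin was 1.93. Of the 157,736 of these bins with such a pair at T0, 21.4% were as high. Of its 55 pairs 4 were listed at all 3 times, and 16 were listed at T48 alone. Over the whole list, 542,645 of 3,654,010 pairs were listed at all 3 times and 893,633 at T48 alone. Among pairs from 400 kb these were 18,809 and 306,301 of 824,499.

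Contacts of the gene bin were also summed by distance. Between 20 and 400 kb it had 1.87 and 2.29 CPM at T0, 2.34 and 2.87 CPM at T6, and 0.690 and 1.12 CPM at T48. At 400 kb or more it had 1.91 and 2.33 CPM at T0, 1.95 and 2.56 CPM at T6, and 5.15 and 5.04 CPM at T48. In both classes the T48 libraries lay apart from the 4 others, lower in the first class and higher in the second. T6 and T0 overlapped in the second class only. How often the sums of other bins lay apart in this way was not counted. In the nearer class the T48 mean was 0.903 ± 0.302 CPM and the T0 mean 2.08 ± 0.297 CPM (SD, n = 2 each), a log2 ratio of −1.24, with −1.44 and −1.04 within replicates. In the farther class the T48 mean was 5.10 ± 0.076 CPM and the T0 mean 2.12 ± 0.292 CPM, a log2 ratio of 1.27, with 1.43 and 1.12 within replicates. Over the genome the same distance classes had log2 ratios of −0.19 and 0.34 at T48 over T0. The exact permutation p was 0.333 for each T48 contrast. At T6 over T0 the log2 ratios were 0.32 and 0.08.

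The partners were not spread evenly around the gene. Beyond 20 kb the gene bin had 0, 1 and 6 pairs towards lower coordinates at T0, T6 and T48 and 24, 22 and 27 towards higher coordinates. Its one pair within 20 kb, with the neighbouring bin 5 kb below it, was listed at T48 alone with 42 and 28 counts. The side of the control region and beyond thus held most partners beyond 20 kb at each time.

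**Figure D2:**
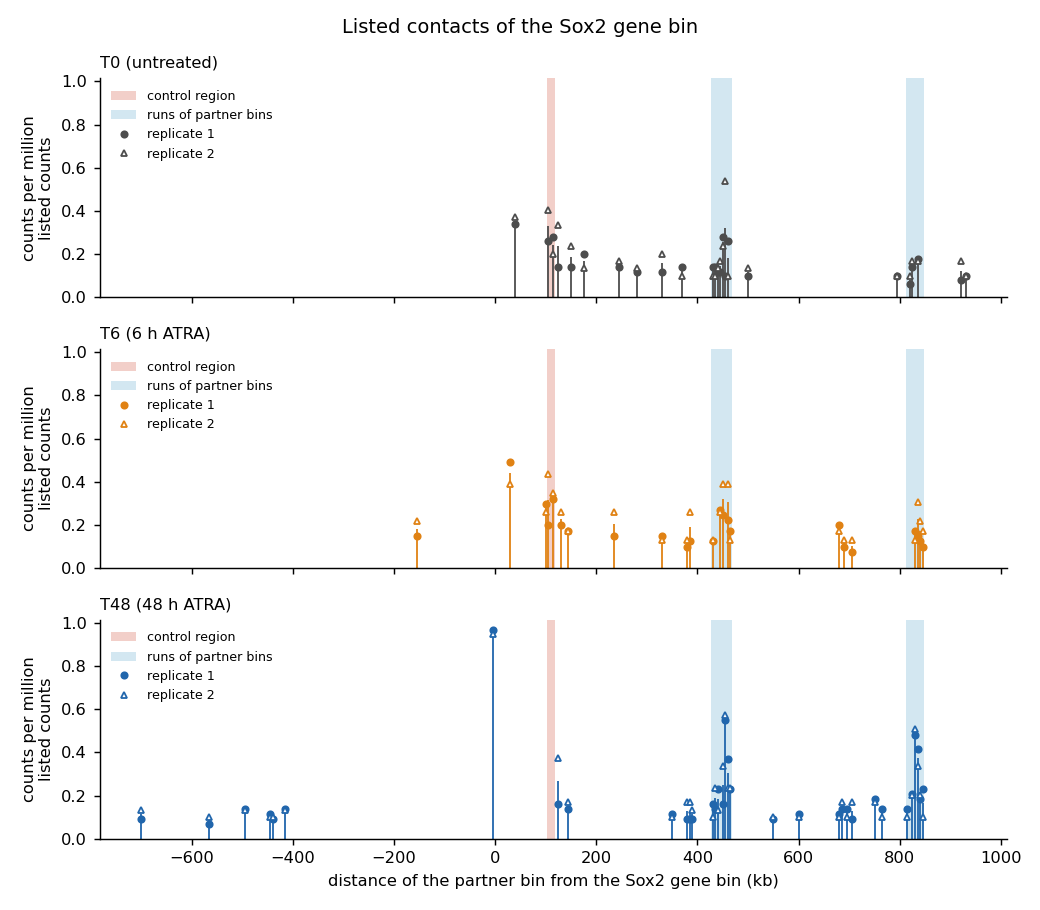
Contact of each listed pair of the gene bin in CPM at T0, T6 and T48 against the distance of the partner bin in kb, with circles for replicate 1, triangles for replicate 2 and lines up to their mean; shading marks the control region and 2 runs of adjacent partners. The control region holds 2 partners at T0, 2 at T6 and 0 at T48, and the runs from 430 to 465 kb and from 815 to 845 kb hold 7 and 6 pairs at T48.

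Some far partners fell into runs of at least 5 adjacent bins, picked out after their values were seen and so given without support from a test. The first run, 34,975,001 to 35,015,000, spans 8 bins 430 to 465 kb from the gene bin, with 7, 5 and 7 listed pairs at T0, T6 and T48. Its contact with the gene bin was 1.16 and 1.38 CPM at T0, 1.04 and 1.30 CPM at T6, and 1.84 and 1.86 CPM at T48. The T48 libraries were above the 4 others, which overlapped. The log2 ratio at T48 over T0 was 0.55, with 0.67 and 0.43 within replicates, against 0.17 for all pairs of the genome at the same distances. At T6 over T0 it was −0.12. The first run was thus listed with the gene bin before treatment too.

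The second run, 35,360,001 to 35,395,000, spans 7 bins 815 to 845 kb away, with 3, 4 and 6 listed pairs at the 3 times. Its contact with the gene bin was 0.379 and 0.439 CPM at T0, 0.542 and 0.826 CPM at T6, and 1.66 and 1.45 CPM at T48. The 3 groups did not overlap. A bin joined a run if it was listed with the gene bin at any time, so choice and sums share the same counts. The bin at 815 kb was listed at T48 alone and the bin at 820 kb at T0 alone. How often runs of other bins lay apart as much was not counted for either run. The log2 ratio was 0.72 for T6 over T0 and 1.93 for T48 over T0 (2.13 and 1.73 within replicates), against 0.47 for all pairs at these distances at T48 over T0. Pairs of the run bins with partners other than the gene bin had a log2 ratio at T48 over T0 of 0.20 for the first run and 0.21 for the second. Genes in the runs are not given, since the gene table used here is of another build.

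Bins within 30 kb on either side of the gene bin shared these far partners. With the first run they had 95 and 66 counts at T0, 110 and 82 at T6, followed by 233 and 161 at T48, with log2 ratios in CPM of 0.60 for T6 over T0 and 1.40 for T48 over T0. With the second run they had 71 and 51 counts at T0, 18 and 12 at T6, then 124 and 103 at T48, with log2 ratios of −1.70 and 1.01. For both runs the gene bin and its neighbours thus differed in sign at T6 over T0 and had the same sign at T48 over T0. The control bins had 49 and 30 counts with the first run at T0, 35 and 17 at T6, followed by 22 and 20 at T48, a log2 ratio of −0.77 at T48 over T0. With the second run the control bins had no more than 6 counts in any library.

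**Figure D3:**
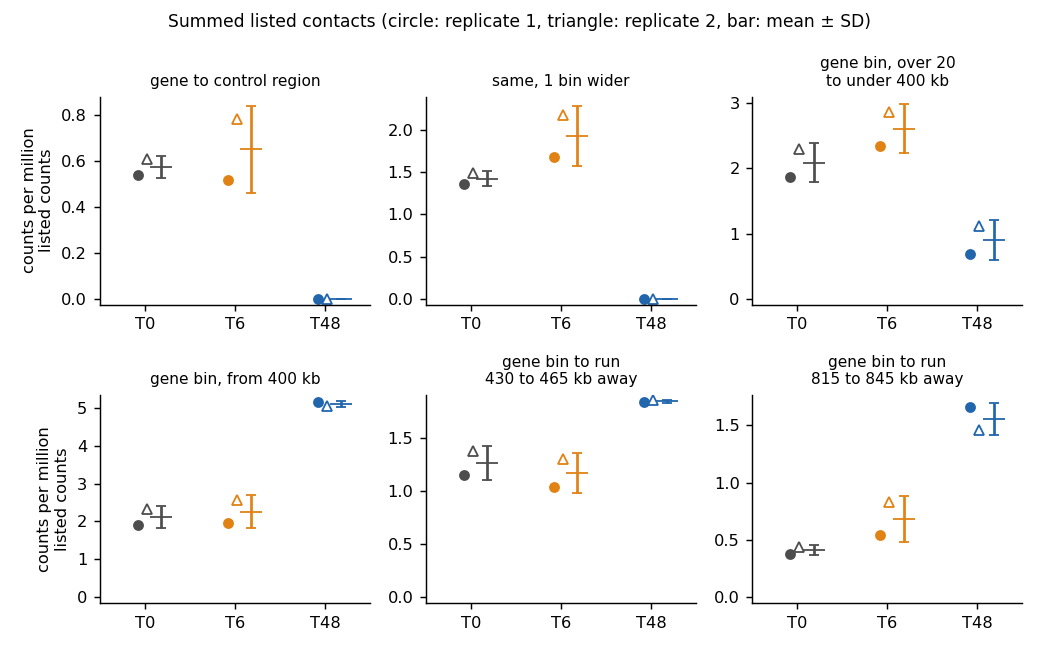
Summed contact in CPM by library at T0, T6 and T48 for the gene bin with the control region (also 1 bin wider), with partners over 20 to under 400 kb away, with partners from 400 kb, and with each run; circles and triangles are replicates 1 and 2, and bars are their mean ± SD. At T48 the partners from 400 kb stand at 5.15 and 5.04 CPM, above all 4 earlier libraries, and the gene to control region sum has no listed count.

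Set against the median count of listed pairs at the same distance and time, the 5 partners of the gene bin with the highest mean multiple all lay in the 2 runs. The bin 835 kb away, 35,380,001 to 35,385,000, had 9 and 5 counts at T0, 6 and 7 at T6, then 18 and 10 at T48, or 1.96, 1.92 and 3.92 times the median. Of the listed pairs at that distance, 2.88%, 1.69% and 0.213% were as high in both libraries at T0, T6 and T48. Over the 5 partners this share ran between 0.213% and 2.27% at T48, and since their multiples chose them it is a description only. The bin at 455 kb, 35,000,001 to 35,005,000, had 5 and 16 counts at T0, was unlisted at T6, and had 24 and 17 counts at T48, 4.53 times the median. The bin at 830 kb, 35,375,001 to 35,380,000, was unlisted at T0 and had 7 and 3 counts at T6 and 21 and 15 at T48, 5.13 times the median. The bins at 450 and 460 kb were listed at all 3 times, at 2.57, 2.5 and 1.95 times the median for the first and 1.8, 2.4 and 2.48 times for the second. Several of these counts are under 10, so single libraries carry a large counting error.

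Other bins near the gene also had more pairs at T48. Of the region's bins, 12 with listed pairs lay within 30 kb of the gene bin, itself included, and together they had 171 pairs at T0, 160 at T6 and 276 at T48, a pair between 2 of them counting for both. All 12 had more pairs at T48 than at T0. For pairs from 400 kb their sums were 72, 54 and 148, and 11 of the 12 bins had more at T48 than at T0 while 1 had fewer. The share of all bins of the genome with more pairs at T48 was not counted. In the 261,527 bins counted above the median ratio at T48 over T0 was 0.909. For pairs from 400 kb it was 1, in 157,736 bins. The other 55 bins of the region had 470, 399 and 470 pairs, with more at T48 than at T0 in 20 and fewer in 23. Their pairs from 400 kb came to 61, 56 and 84, with more at T48 in 21 bins and fewer in 9. The neighbouring bin at 34,540,001 to 34,545,000 had 19, 17 and 39 pairs, of which 14, 11 and 28 spanned 400 kb or more. Neighbouring bins share partners and are not independent observations.

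**Figure D4:**
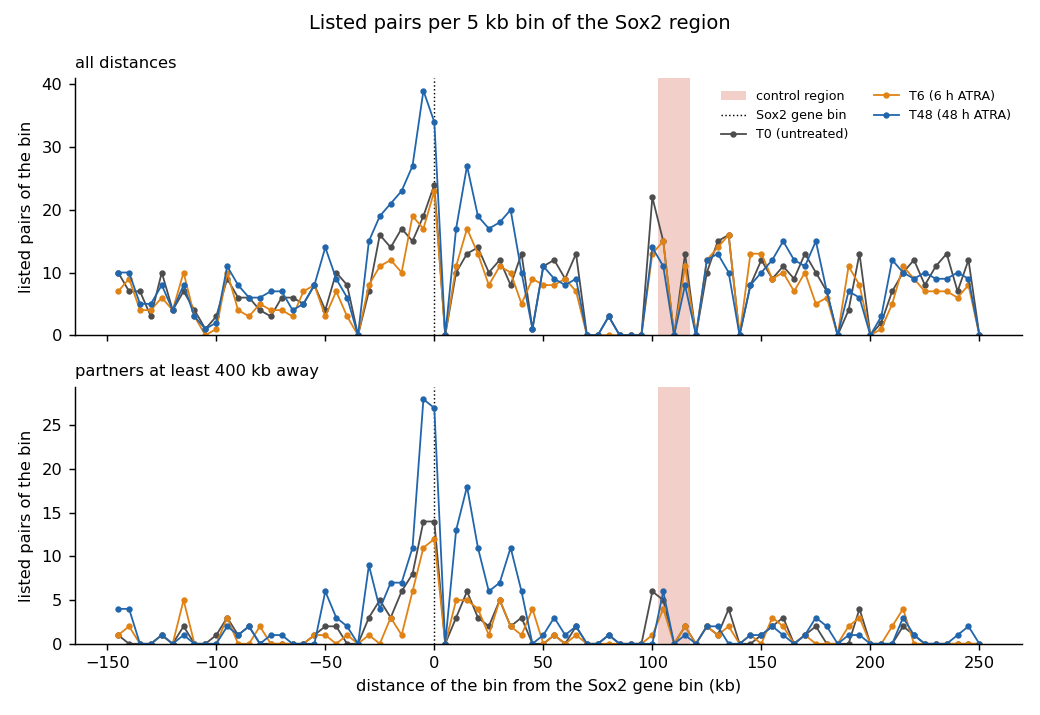
Number of listed pairs of each 5 kb bin of the Sox2 region at T0, T6 and T48, for all distances (top) and for partners at least 400 kb away (bottom), by distance from the gene bin in kb; a dotted line marks the gene bin and shading the control region. Bins within 30 kb of the gene bin hold 276 pairs in all at T48 and 171 at T0, whereas the other bins hold 470 at each of these times.

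Listed pairs of the whole region numbered 477, 415 and 588 at the 3 times in order. Its ratio at T48 over T0 was 1.23, against 0.955 for the whole list. Of 6275 windows of 400 kb with at least 100 listed pairs at T0, 5.23% had a ratio as high (quartiles 0.900, 0.982 and 1.07). Pairs with both bins inside the region did not share its higher ratio. They numbered 164, 144 and 158, a ratio of 0.963, near that of the whole list. Long and short pairs differed in this. From 400 kb the region had 133, 110 and 232 pairs, a ratio at T48 over T0 of 1.74 against 1.19 genome-wide, while up to 20 kb it had 108, 89 and 108. Only 88 pairs were listed at all 3 times. Of the pairs listed at T0, 29.4% were listed again at T6 and 32.3% at T48, against 40.2% and 40.9% over the genome. The region's pairs were longer than most, with a median of 245, 250 and 340 kb, so the 2 are not matched for distance. From 400 kb, 24.8% of the region's T0 pairs were listed again at T48, against 14.3% of the genome's, and up to 20 kb it was 75.9% against 77.0%. In the distance classes between these the region was below the genome, with 17.3% against 32.6% over 20 to 100 kb and 16.3% against 25.3% over 100 to 400 kb.

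Counts of single pairs were compared only where a pair was listed at all 3 times, so that each library had a count. Of the 88 such pairs in the region 72 passed the filter on low counts, and edgeR's quasi-likelihood test, fitted over 496,203 pairs of the genome, called 0 of them at an adjusted p under 0.05 in any contrast. It called 0% of the genome's pairs too. At an unadjusted p under 0.05 it had 3 of 72 region pairs for T6 over T0 (2 higher, 1 lower) where the genome had 3.17%. For T48 over T0 it had 3 of 72, all higher, where the genome had 5.52%, and for T48 over T6 it had 5 of 72, all higher, where the genome had 5.06%. DESeq2 called 0 of the 72 in each contrast, where the genome had 0.000202%, 0.0189% and 0.0149%. The region's shares are near the background, and its median log2 ratios were 0.04, 0.08 and −0.01.

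Among the 3 pairs with the lowest p at T48 over T0 was 1 of the gene bin, the pair 835 kb apart. Its log2 ratio at T48 over T0 was 1.10 with a standard error of 0.37 and an edgeR adjusted p of 0.859, and at T48 over T6 it was 1.03 with an adjusted p of 0.969. The T48 libraries, at 18 and 10 counts, were above the T0 libraries, at 9 and 5. The lowest p at T6 over T0 was that of adjacent bins 34,590,001 to 34,595,000 and 34,595,001 to 34,600,000, between gene and control region. They shared 42 and 27 counts at T0, 116 and 75 at T6, followed by 115 and 26 at T48, a log2 ratio of 1.66 with a standard error of 0.43 for T6 over T0. Its edgeR adjusted p was 0.99995, and the T48 replicates differed from each other more than the T0 replicates did. The pair of 34,680,001 to 34,685,000 with 34,690,001 to 34,695,000, beyond the control region, had 40 and 25 counts at T0, 30 and 21 at T6, then 54 and 36 at T48. Its log2 ratio was 0.58 for T48 over T0 and 0.74 for T48 over T6, with edgeR adjusted p-values of 0.849 and 0.866. The other named pairs join bins up to 10 kb apart. At T6 over T0 the pair that starts at 34,400,001 had a log2 ratio of 0.63 and the pair that starts at 34,715,001 one of −0.62, and at T48 over T6 the pair that starts at 34,525,001 had 0.58; none passed the adjusted threshold.

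Summing the pairs listed at all times over 25 kb blocks gave 38 block pairs, of which 35 were tested. The same edgeR test over 186,903 block pairs called 0 of 35 in each contrast, where it called 0%, 0.000535% and 0% of the genome for T6 over T0, T48 over T0 and T48 over T6. At an unadjusted p under 0.05 it had 2, 2 and 3 of the 35, where the genome had 2.54%, 6.43% and 5.81%. DESeq2 called 0 of the 35 in each, where it called 0.0112%, 0.0637% and 0.046% of the genome. The following block pairs were chosen after their values were seen. The block of the gene bin, 34,525,001 to 34,550,000, with the block 35,375,001 to 35,400,000, had 13 and 10 counts at T0, 13 and 10 at T6, followed by 27 and 19 at T48. Both T48 libraries were above the 4 others, with a log2 ratio of 1.09 at T48 over T0 and an edgeR adjusted p of 0.679. With the block that starts at 34,975,001 it had 27 and 13 counts at T0, 22 and 17 at T6, then 25 and 20 at T48, a log2 ratio of 0.29 at T48 over T0.

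By 50 kb windows, each with all pairs listed at all times, 8 of 8 windows of the region were tested and 0 were called, where edgeR called 0%, 0.0263% and 0.0182% of 49,387 windows for T6 over T0, T48 over T0 and T48 over T6. At an unadjusted p under 0.05 it had 0, 0 and 2 of the 8, where the genome had 1.73%, 8.59% and 6.72%, and DESeq2 called 0 of the 8, where it called 0.0324%, 0.235% and 0.168% of the genome. The log2 ratios at T48 over T0 ran between −0.10 and 0.22. The highest was that of the window with the gene bin, which starts at 34,500,001, at 17.7 ± 1.34 CPM at T48 and 15.1 ± 1.16 CPM at T0 (SD, n = 2 each; edgeR adjusted p = 0.615). The window that starts at 34,550,001 had a log2 ratio of −0.28 at T48 over T6 (edgeR adjusted p = 0.731). Of the region's 88 pairs behind these sums 63 span up to 20 kb, and the pairs between gene and control region are not among them, since none was listed at all 3 times.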

How the data were processed

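Hi-C was carried out in 6 libraries of P19 cells, 2 at each of T0, T6 and T48, as the sample titles give them. The authors deposited 1 list in which each pair of 5 kb bins has its raw count of read pairs in every library, per the file headers, which the labels name as interactions found in both replicates. The build mm9 and the tools CASAVA 1.8.2 and Bowtie2 are named per the submitters' processing notes. Enzyme, interaction caller, threshold and coverage correction are not given in the sources used here.

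In this work 4 mitochondrial pairs were left out. Contact sums were scaled to each library's listed counts, and 2 libraries were compared with 2 by two-sided exact permutation tests. Pairs listed at all 3 times were tested with edgeR 4.0.16 (TMM, filterByExpr, quasi-likelihood, all 6 libraries, Benjamini-Hochberg adjustment over all features, threshold 0.05) under R 4.3.3, as single pairs, 25 kb block pairs and 50 kb windows. The tests were tested on simulated data. For the gene to control region contact at T48, where a log2 ratio has no value, the difference in CPM was used. Alternatives were DESeq2 1.42.0, other scalings and filters, the replicate number as a block, and the fits without each library. Pairs described by name were all gene to control region pairs, the 3 tested region pairs with the lowest p in each contrast, and the 5 partners of the gene bin, at least 50 kb away, with the highest mean multiple of the median count at their distance over the 3 times (0 where unlisted). Bins were assigned to gene and control region by the positions given above. The members and lists were chosen with earlier results of these data known. Promoter sequence and names came from RefSeq (GRCm38.p6), with Sox2 matched by symbol.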

Additional observations from a re-analysis of the deposited data

Results flagged for a closer look

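Some sums went one way at T6 and the other way at T48, relative to T0, in both replicates, and both contrasts share the T0 libraries. The sums listed below are not all of these. Over 20 kb away on the gene side, both control bins were also higher at T6 and lower at T48 in both replicates. Their log2 ratios at T48 over T6 were −3.44 for the bin that starts at 34,650,001 and −2.55 for the bin that starts at 34,660,001. The difference between the 2 contrasts is the contrast of T48 over T6. Of the 3 contact sums listed below, 2 involve runs of partners picked out after their values were seen. No p-value is given for those. For the other sum the exact permutation p was 0.333, the smallest that 2 libraries against 2 allow. For the window the edgeR p was 0.0102 unadjusted and 0.680 adjusted, so neither passed the threshold.

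The 50 kb window that starts at 34,700,001 had log2 ratios of −0.10 and −0.08 at T6 over T0 and of 0.11 and 0.19 at T48 over T0 in replicates 1 and 2, a log2 ratio of 0.24 at T48 over T6. Contact of the gene bin with partners over 20 and under 400 kb away had 0.32 and 0.32 at T6 over T0 and −1.44 and −1.04 at T48 over T0, and −1.56 at T48 over T6. Contact of the gene bin with the run of partners at 430 to 465 kb had −0.16 and −0.08 at T6 over T0 and 0.67 and 0.43 at T48 over T0, and 0.67 at T48 over T6. Contact of the bins within 30 kb of the gene bin with the run at 815 to 845 kb had −1.67 and −1.72 at T6 over T0 and 1.01 and 1.02 at T48 over T0, and 2.71 at T48 over T6; it rests on 14, 4 and 23 listed pairs at T0, T6 and T48.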

How the results depend on the processing

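No single pair, block pair or window of the region was called by edgeR or DESeq2 under any alternative run on pairs listed at all times, which included DESeq2 size factors, no filter, the replicate block and leaving out each library (0 calls each). Blocks over all listed pairs, in which unlisted pairs count as 0, gave 76 calls of 134 region block pairs for T6 over T0, 90 for T48 over T0 and 94 for T48 over T6; the zeros enter by construction, and 48.7%, 55.4% and 56.9% of all block pairs were called. A list restricted to counts at least 1.5 times the lowest listed count at the same distance in both libraries left 70, 61 and 115 region pairs at T0, T6 and T48, 5, 6 and 11 pairs of the gene bin, and 1, 1 and 0 between gene and control region. Counting only pairs with both bins inside gave 164, 144 and 158. The mean multiple of the partner at 830 kb was 1.8 over the 3 times with the mean in place of the median and 2.17 with the median; the same 5 partners were named.

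The T6 over T0 log2 ratio of gene to control region contact was −0.14 to 0.45 when 1 library was left out, below 0 without T6 replicate 2. It was 0.01 with TMM scaling, 0.17 per chromosome, 0.19 by counts at like distances, and 0.43 for the wider bins. The T48 difference was −0.607 to −0.538 CPM against T0 and −0.782 to −0.518 CPM against T6 when 1 library was left out. No value could be had from pairs listed at all 3 times, since no gene to control region pair was. Window log2 ratios near 0 changed sign. With pairs at least 15 kb apart, T6 over T0 at 34,550,001 was −0.0543 and T48 over T6 at 34,650,001 was −0.0933. With pairs inside a window counted once per bin, T48 over T0 at 34,600,001 was 0.0104. Leaving out 1 library gave, for T6 over T0, −0.0536 to 0.155 at 34,400,001, −0.074 to 0.175 at 34,450,001 and −0.0236 to 0.158 at 34,500,001; for T48 over T0, −0.0818 to 0.121 at 34,400,001 and −0.0483 to 0.024 at 34,600,001; and for T48 over T6, −0.123 to 0.0744 at 34,400,001, −0.0349 to 0.213 at 34,450,001 and −0.1 to 0.0335 at 34,750,001. The cause was not tested.

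Replicates share only a number, and the differences between replicates correlated at 0.349 between T6 and T0, 0.295 between T48 and T0, and 0.292 between T48 and T6 over 542,645 pairs. With the replicate block the gene to control region log2 ratio at T6 over T0 was 0.15 (exact permutation p = 1), and no region call was made. Over the genome the block gave 310 and 193 called windows at T48 over T0 and T48 over T6 against 13 and 9 without it, DESeq2 gave 116 and 83, and leaving out any 1 library gave 0 with edgeR. Low counts per far pair and 2 libraries per group limit every single-pair comparison, and an unlisted pair has no known count.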
